A study of Mus musculus with 8 samples.

Results

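Genes of fatty acid oxidation and handling that are known targets of peroxisome proliferator-activated receptor alpha (PPARα) were followed in mouse liver: Cyp4a14, Cyp4a10, Ehhadh, Acaa1b, Cpt1a, Pdk4, Acot1, Acot2, Cd36 and Angptl4. They were taken by gene symbol from the annotation of an Affymetrix expression array, on which the 10 genes were covered by 18 of 22690 probe sets. In all, 12393 genes have a probe set that names them alone. Of the 18 probe sets, 14 name 1 gene and 4 name a member together with a close relative. Cyp4a10 has no probe set of its own and is read only through a probe set shared with Cyp4a31, so 9 of the 10 genes are among those 12393. The members are 2 microsomal, 2 peroxisomal and 3 mitochondrial genes, with 1 cytosolic, 1 plasma membrane and 1 secreted product.

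PPARα is a nuclear receptor that binds fatty acids and their derivatives and acts on DNA as a partner of the retinoid X receptor (RXR). In liver it is known for driving fatty acid catabolism in several compartments. Microsomal cytochromes P450 of the Cyp4a family hydroxylate the far end of the chain, peroxisomal enzymes shorten long chains and dicarboxylic acids, and mitochondria complete β-oxidation and make ketone bodies. The liver X receptors (LXRs) are nuclear receptors for oxysterols that also pair with RXR, and are known for control of cholesterol export and fatty acid synthesis.

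All 8 animals were mice of C57B6 background that were 8 months old and had been fed a Western diet for 12 weeks. Each had received, at 10 weeks of age, an adeno-associated virus (AAV2.8) in which a hepatic promoter, that of human thyroxine binding globulin, drives either green fluorescent protein (GFP) as the control or human LXRα. Before sampling they were injected intraperitoneally for 3 days with vehicle or with T0901317, a synthetic LXR agonist, at 5 mg/kg. The 4 groups, with 2 arrays each, were GFP with vehicle, LXRα with vehicle, GFP with T0901317 and LXRα with T0901317. Mouse hepatocytes keep their own LXRα, so the GFP groups were not LXRα-deficient, and the diet was shared by all groups, so its effect could not be examined. Values are the deposited intensities of whole-liver RNA. Differences are on the log2 scale after intensities under 7.50 were set to 7.50, and 15838 probe sets, all 18 of the members among them, were tested.

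Array medians differed by at most 0.14 on the log2 scale. Probe sets for 7 hepatocyte markers averaged between 12.9 and 13.2 (log2) on every array. Single markers were not all so steady: Alb ran from 19677 to 31022, but Tat from 1008 to 6291 and Apob from 494 to 2506. The mouse LXRα gene Nr1h3 read 128 and 170.0 with GFP and vehicle, 183 and 218 with LXRα and vehicle, 75.8 and 98.0 with GFP and T0901317, and 163 and 62.6 with LXRα and T0901317, groups that overlap in part. Its probe set was designed for the mouse transcript, and whether it reads the human transgene is not known from these files. The ratio of 3′ to 5′ β-actin control probe sets, a measure of RNA integrity and labelling, was 2.08 to 3.08 on 5 arrays, and 7.56 and 11.0 in the GFP T0901317 livers and 36.3 in LXRα T0901317 replicate 2. The 3 arrays of high ratio were thus all from T0901317-treated animals. In LXRα livers treatment and ratio are partly confounded. In GFP livers both T0901317 arrays were high and both vehicle arrays low, so treatment and ratio cannot be told apart there. With 2 arrays a group, the p-values measure only the spread between these samples.

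Promoter windows, 250 bases before to 50 after the transcription start, were taken from RefSeq (mouse build GRCm38.p6) and were found for 7 of the 10 genes; Cyp4a14, Cyp4a10 and Angptl4 were not matched. They were searched on both strands, allowing up to 2 mismatches, for DR1 (AGGTCANAGGTCA), the direct repeat that PPAR and RXR are known to bind, and for DR4 (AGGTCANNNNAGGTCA), the repeat known for LXR and RXR. The exact half-site AGGTCA, which is part of both, was searched as well. A DR1 match lay in 1 of the 7 windows against 3.86% of all 32851 windows, a DR4 match in 0 of 7 against 3.02%, and a half-site in 2 of 7 against 16.3%. Shown are the 2 windows with any match, those of Cd36 (chr5:17835847-17836146, minus strand) and Cpt1a (chr19:3323051-3323350, plus strand), and that of Ehhadh (chr16:21787785-21788084, minus strand), the peroxisomal gene with the widest range below. Sequences run 5′ to 3′ along the gene, and capitals mark the matches.
Cd36: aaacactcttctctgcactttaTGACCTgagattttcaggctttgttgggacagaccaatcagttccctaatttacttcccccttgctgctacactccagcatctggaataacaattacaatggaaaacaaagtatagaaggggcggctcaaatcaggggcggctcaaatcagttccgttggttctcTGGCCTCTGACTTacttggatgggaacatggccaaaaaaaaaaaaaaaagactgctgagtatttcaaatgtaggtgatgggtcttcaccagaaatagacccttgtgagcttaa
Cpt1a: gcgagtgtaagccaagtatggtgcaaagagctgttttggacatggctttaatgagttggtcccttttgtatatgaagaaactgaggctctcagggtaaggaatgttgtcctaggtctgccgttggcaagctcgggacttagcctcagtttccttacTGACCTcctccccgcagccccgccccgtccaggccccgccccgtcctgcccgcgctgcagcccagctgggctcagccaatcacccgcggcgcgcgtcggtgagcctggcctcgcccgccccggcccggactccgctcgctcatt
Ehhadh: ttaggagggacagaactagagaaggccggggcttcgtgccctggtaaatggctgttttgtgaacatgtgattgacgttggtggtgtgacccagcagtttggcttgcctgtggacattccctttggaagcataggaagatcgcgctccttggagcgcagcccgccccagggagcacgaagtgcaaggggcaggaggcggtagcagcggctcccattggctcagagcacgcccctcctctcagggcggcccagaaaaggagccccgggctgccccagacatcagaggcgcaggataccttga
The capitals in the Cd36 window are a half-site on the opposite strand that begins at -228 and a DR1 match with 2 mismatches, also on the opposite strand, that begins at -63. In Cpt1a a half-site on the opposite strand begins at -94. These matches describe letters only, and the absence of one says only that these letters are not in this window.

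Across the arrays, the microsomal, peroxisomal and cytosolic enzymes of the set and Pdk4 were lowest in the vehicle livers with LXRα and highest in the T0901317 livers with LXRα by group mean, while Cpt1a and Angptl4 kept no such order. Between vehicle and T0901317 in LXRα livers the mean of Cyp4a14 differed 33.4-fold, Acot1 10.7-fold, Ehhadh 7.88-fold and Pdk4 7.36-fold, whereas Cpt1a differed 1.04-fold. None of the 18 probe sets passed limma's test at an adjusted p of 0.05 in any of 7 contrasts, in which 0 to 90 of the 15838 probe sets passed. A single array often set the ends of the range: among the 9 genes and the shared Cyp4a10/Cyp4a31 probe set, 7 of 10 were lowest on LXRα vehicle replicate 2 and 7 of 10 were highest on LXRα T0901317 replicate 1. The heat map of arrays shows both columns.

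**Figure D1:**
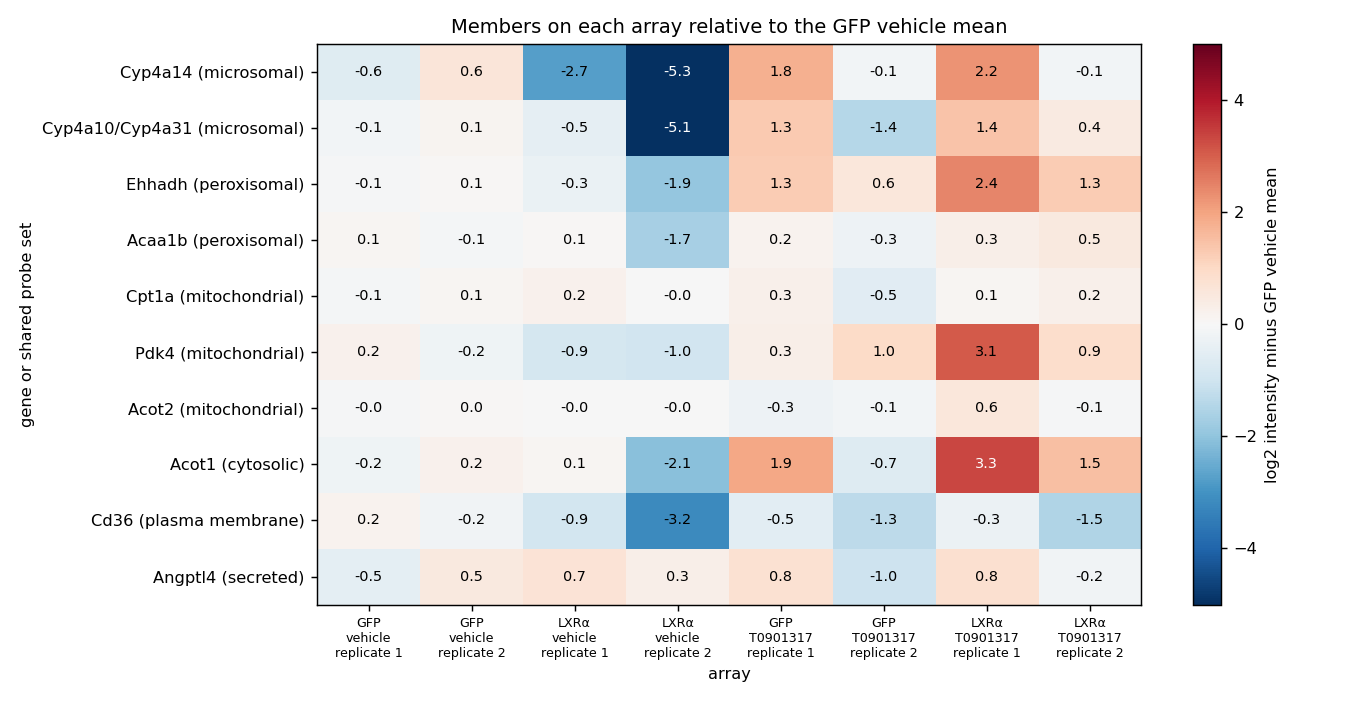
Heat map of the log2 intensity of each gene (rows, with compartment) on each of the 8 arrays (columns) minus that gene's mean over the 2 GFP vehicle arrays; red is higher and blue lower. LXRα vehicle replicate 2 lies below the GFP vehicle mean for 9 of 10 rows, down to -5.29 for Cyp4a14, and LXRα T0901317 replicate 1 lies above it for 9 of 10, up to 3.35 for Acot1.

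Cyp4a14 is a microsomal ω-hydroxylase of fatty acids and among the most responsive PPARα targets known in mouse liver. Its intensity was 559 and 1304 in the GFP vehicle livers, 128 and 21.9 in the LXRα vehicle livers, 2939 and 783 in the GFP T0901317 livers, and 4023 and 779 in the LXRα T0901317 livers. Both LXRα vehicle arrays lay under every other array, and the 2 T0901317 groups overlapped. The LXRα vehicle mean was 16.1-fold under the GFP vehicle mean, which on the log2 scale is -4.01 ± 1.13 (SE; adjusted p = 0.774 by limma). In LXRα livers T0901317 differed from vehicle by 5.06 ± 1.13 (95% interval 2.38 to 7.75; adjusted p = 0.182), the highest difference among the 9359 genes tested in that contrast. The same contrast was 0.83 ± 1.13 in GFP livers, and the difference between the 2 effects, 4.23 ± 1.60, had an adjusted p of 1. Without LXRα vehicle replicate 2 the LXRα contrast was 3.79, and without LXRα T0901317 replicate 1 it was 3.88. The latter value rests on LXRα T0901317 replicate 2, the array of the highest β-actin ratio, as the only array of its group.

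Cyp4a10 encodes a related ω-hydroxylase, and Cyp4a14, Cyp4a10 and Cyp4a31 lie next to each other on the chromosome in GRCm38.p6, with 0 protein-coding genes between neighbours. The probe set shared by Cyp4a10 and Cyp4a31 cannot tell their transcripts apart. It read 1550.5 and 1835 with GFP and vehicle, 1229.8 and 49.8 with LXRα and vehicle, 4182 and 631 with GFP and T0901317, and 4499 and 2297 with LXRα and T0901317. One array, LXRα vehicle replicate 2, was far under the rest, and its partner was close to the GFP vehicle arrays. T0901317 against vehicle in LXRα livers gave 3.70 ± 1.48 (SE; limma adjusted p = 0.362), which came to 1.39 without that array. The LXRα vehicle mean minus the GFP vehicle mean was -2.77 ± 1.48 on the log2 scale (adjusted p = 0.963), and -0.46 without that array. A probe set that names Cyp4a31 alone was dim under vehicle, at a mean log2 of 3.50 with LXRα and 3.43 with GFP. Its difference was 0.08 ± 0.17. Which transcript the shared probe set reads was not tested.

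**Figure D2:**
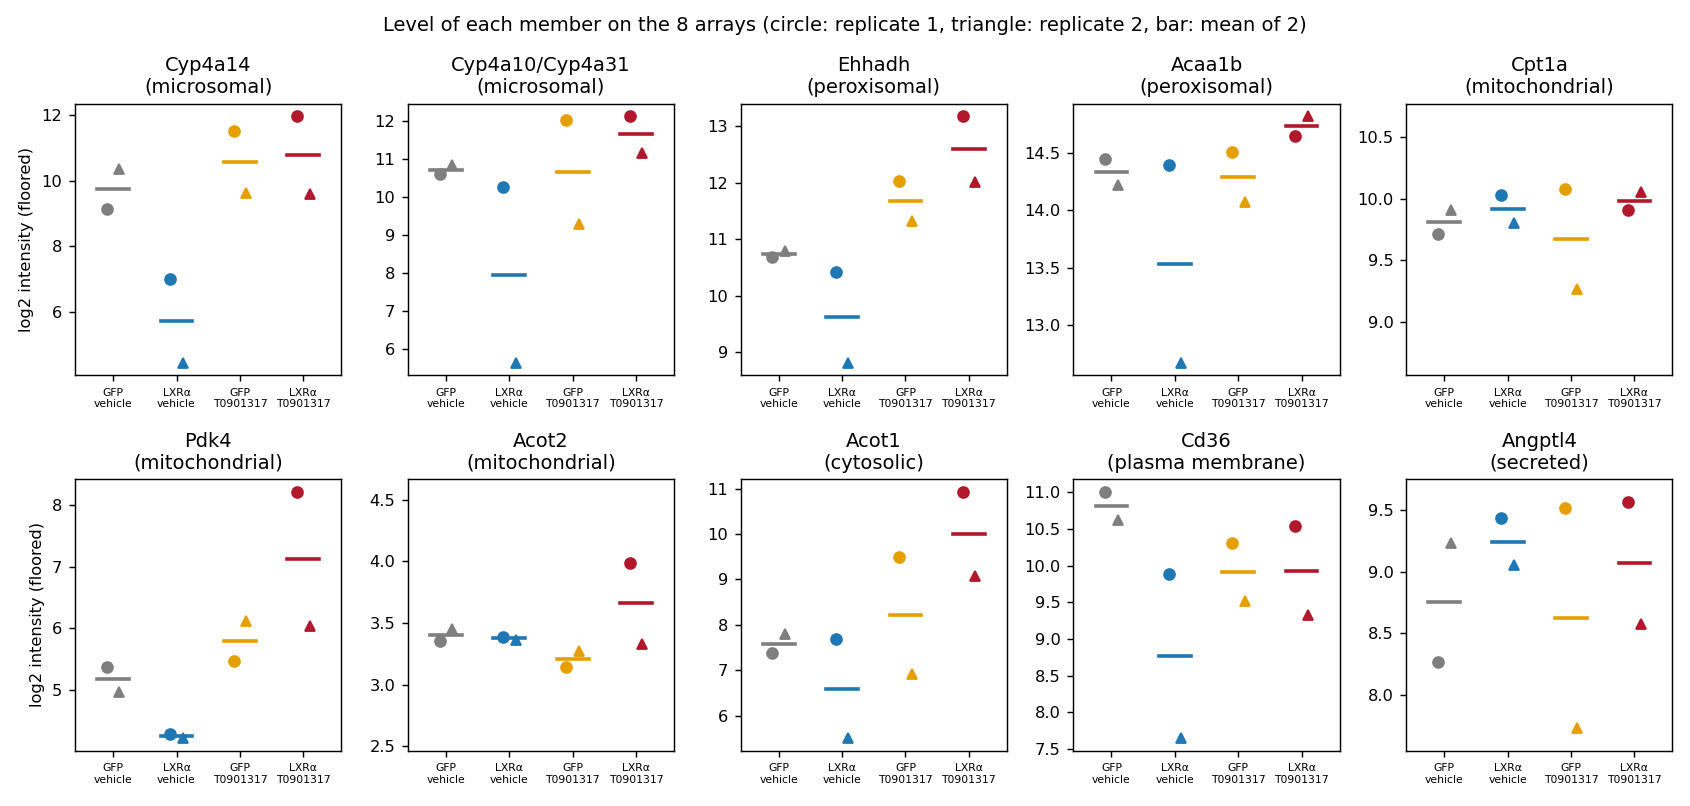
Log2 intensity (vertical axis, floored at 7.50 before log2; scale differs by panel) of 9 genes and of the shared Cyp4a10/Cyp4a31 probe set in the 4 groups; circles are replicate 1, triangles replicate 2 and bars the mean of the 2 arrays. Cyp4a14, Ehhadh and Pdk4 place both LXRα vehicle arrays under all others, whereas the 8 arrays of Cpt1a lie within 0.81 log2 units.

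Ehhadh encodes the peroxisomal bifunctional enzyme, which carries out the hydration and dehydrogenation steps of peroxisomal β-oxidation. Its intensity was 1653 and 1779.8 in the GFP vehicle livers, 1366 and 451 in the LXRα vehicle livers, 4182 and 2548 in the GFP T0901317 livers, and 9273 and 4121 in the LXRα T0901317 livers. All 4 T0901317 arrays lay above all 4 vehicle arrays, and both LXRα vehicle arrays lay under both GFP vehicle arrays. Averaged over transgenes, T0901317 exceeded vehicle by 1.95 ± 0.42 (SE; limma adjusted p = 0.0824), the lowest adjusted p of any member in the 7 contrasts. Within LXRα livers the difference was 2.98 ± 0.59 (95% interval 1.57 to 4.39; adjusted p = 0.172), and within GFP livers 0.93 ± 0.59 (adjusted p = 0.510). The LXRα vehicle mean minus the GFP vehicle mean was -1.13 ± 0.59 (adjusted p = 0.963), and -0.33 without LXRα vehicle replicate 2.

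Acaa1b encodes a peroxisomal 3-ketoacyl-CoA thiolase, the enzyme of the last step of the cycle. It was the brightest probe set of the members and read 22369.7 and 19145 with GFP and vehicle, 21503 and 6549 with LXRα and vehicle, 23271 and 17263 with GFP and T0901317, and 25688 and 28954 with LXRα and T0901317. The other 7 arrays lay between 17263 and 28954, and LXRα vehicle replicate 2 stood under them. The 2 probe sets shared with its near-identical relative Acaa1a also had their lowest values on that array, 4120.4 and 2289.5. T0901317 against vehicle in LXRα livers gave 1.20 ± 0.50 (SE; limma adjusted p = 0.377), which came to 0.34 without that array. LXRα against GFP with vehicle was -0.80 ± 0.50 (adjusted p = 0.963), and without that array its sign turned, to 0.06.

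Cpt1a is the outer mitochondrial membrane carnitine palmitoyltransferase that admits long chains to mitochondrial β-oxidation. Its main probe set read 840.0 and 962 with GFP and vehicle, 1048 and 894 with LXRα and vehicle, 1081 and 615 with GFP and T0901317, and 962 and 1062 with LXRα and T0901317. The groups overlapped in every comparison. LXRα against GFP with vehicle differed by 0.11 ± 0.31 (SE; 95% interval -0.62 to 0.83), and T0901317 against vehicle by 0.06 ± 0.31 in LXRα livers (-0.66 to 0.79) and by -0.14 ± 0.31 in GFP livers (-0.87 to 0.58). Each interval spans differences of either sign, so a change of that size in either direction could not be told from none with 2 arrays a group. The other 2 Cpt1a probe sets ranged over 0.99 and 1.19 log2 units across the 8 arrays, and they placed LXRα T0901317 replicate 1 lowest.

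Pdk4 encodes a pyruvate dehydrogenase kinase that restrains glucose oxidation when fatty acids are burned. It was dim, reading 41.6 and 31.3 with GFP and vehicle, 19.4 and 18.6 with LXRα and vehicle, 44.3 and 69.7 with GFP and T0901317, and 299 and 65.5 with LXRα and T0901317. As for Ehhadh, all T0901317 arrays lay above all vehicle arrays. The mean over transgenes differed by 1.75 ± 0.46 (SE; limma adjusted p = 0.112). Without LXRα T0901317 replicate 1, the array that stood above the rest, this difference was 1.20. In LXRα livers alone the difference was 2.88 ± 0.64 (adjusted p = 0.182), and 1.79 without that array. The T0901317 arrays left without it are all of high β-actin ratio, so treatment and ratio cannot be told apart there. LXRα against GFP with vehicle was -0.92 ± 0.64 (adjusted p = 0.963), and with T0901317 it was 1.33 ± 0.64 (adjusted p = 1).

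Acot2, a mitochondrial acyl-CoA thioesterase, was near the floor on its own probe set, at 8.85 to 10.9 on 7 arrays and 15.8 on LXRα T0901317 replicate 1. Acot1, its cytosolic counterpart, splits acyl-CoA in the cytosol, and the 2 genes are neighbours with 0 protein-coding genes between them. Acot1 read 165 and 222 with GFP and vehicle, 205 and 45.2 with LXRα and vehicle, 723 and 121 with GFP and T0901317, and 1953 and 543 with LXRα and T0901317. Both LXRα T0901317 arrays lay above both vehicle arrays of the same transgene, and replicates of the GFP T0901317 group fell on either side of all GFP vehicle values. The LXRα contrast was 3.42 ± 1.06 (SE; limma adjusted p = 0.281). It came to 2.33 without LXRα vehicle replicate 2 and 2.49 without LXRα T0901317 replicate 1. For the latter value the LXRα T0901317 group is replicate 2 alone, the array of the highest β-actin ratio. The 2 other simple contrasts that include a vehicle group were smaller than their SE. The probe set shared by Acot1 and Acot2 read 171 and 105 with LXRα and vehicle, and 2278 and 222 with LXRα and T0901317. Sequence shared between thioesterases of this cluster makes their separate levels uncertain.

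Cd36, the scavenger receptor and fatty acid transporter of the plasma membrane, was read by 3 probe sets that differed in the order of groups. Its brightest probe set read 2061 and 1575 with GFP and vehicle, 944 and 200.4 with LXRα and vehicle, 1265 and 731 with GFP and T0901317, and 1488 and 643 with LXRα and T0901317. On this probe set both GFP vehicle arrays lay above the other 6. LXRα against GFP with vehicle was -2.05 ± 0.75 (SE; limma adjusted p = 0.884), and without LXRα vehicle replicate 2 it was -0.93. T0901317 against vehicle was -0.91 ± 0.75 in GFP livers (adjusted p = 0.576) and 1.17 ± 0.75 in LXRα livers (adjusted p = 0.481), and the latter came to 0.05 without that array. When the β-actin ratio entered the fit as a covariate, these differences were -0.11 in GFP and 1.865 in LXRα livers. The other 2 Cd36 probe sets gave -1.57 and -1.71 for the vehicle comparison, and -0.03 and 0.17 for T0901317 in GFP livers, so the lower GFP T0901317 value was seen on 1 of 3 probe sets beyond its SE. For T0901317 in LXRα livers they gave 1.77 ± 0.50 (SE; limma adjusted p = 0.239) and 2.21 ± 0.59 (adjusted p = 0.226), with the T0901317 arrays above the vehicle arrays. On both, the mean was lowest with LXRα and vehicle and highest with LXRα and T0901317.

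Cd36 is also made by macrophages and endothelium. All 11 macrophage markers, among them Cd68, C1qa, Adgre1 and Clec4f, were lower in LXRα than in GFP livers with vehicle, with differences from -3.10 to -0.44, and none was called. Their mean log2 level was 8.36 and 8.91 with GFP and vehicle, 7.85 and 6.35 with LXRα and vehicle, 7.64 and 8.80 with GFP and T0901317, and 8.18 and 7.74 with LXRα and T0901317. The lowest macrophage level and the lowest Cd36 value were on the same array, LXRα vehicle replicate 2. The mean of 8 endothelial markers was lowest there too, at 5.22 against 5.77 to 6.54 on the other arrays. Of 7 adipocyte markers, 5 were in the table, 1 of them was at the floor on every array, and their mean ran from 4.19 on LXRα vehicle replicate 2 to 5.25. None of the marker lists had a gene at the floor on all arrays other than that 1. The part of these cells in the Cd36 values was not tested, and in whole-liver RNA fewer cells of a type and less RNA per cell cannot be told apart.

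Angptl4 encodes a secreted inhibitor of lipoprotein lipase. Its brighter probe set read 309 and 603 with GFP and vehicle, 693 and 531 with LXRα and vehicle, 733 and 212 with GFP and T0901317, and 759.8 and 383 with LXRα and T0901317. The groups overlapped throughout, and each simple contrast was smaller than its SE. Its second probe set stayed near the floor, between 8.82 and 13.

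The contrast between compartments was widest in LXRα livers. With T0901317 against vehicle there, the microsomal value, that of Cyp4a14, was 5.06, the median of the 2 peroxisomal genes was 2.09, and the median of the 3 mitochondrial genes was 0.28, beside -0.05 for all probe sets tested. The mitochondrial median is the value of Acot2, near the floor, and it was 1.47 under a stricter filter on dim probe sets that leaves Cpt1a and Pdk4. The order was the same in size with opposite sign for LXRα against GFP under vehicle, at -4.01, -0.97 and -0.02 beside 0.05. Both contrasts use the same LXRα vehicle arrays, so they are not independent. The mitochondrial genes differed among themselves, since Pdk4 stood at 2.88 while Cpt1a and Acot2 stood at 0.06 and 0.28. In GFP livers T0901317 against vehicle gave 0.83, 0.44 and -0.14, and between transgenes under T0901317 the values were 0.22, 0.68 and 0.45. Without LXRα vehicle replicate 2, the peroxisomal median in LXRα livers was 1.26, and that under vehicle was -0.14. When the β-actin ratio entered the fit as a covariate, the LXRα contrast was 6.42 for Cyp4a14, 3.63 for Ehhadh, 1.20 for Acaa1b, 3.88 for Pdk4 and 0.06 for Cpt1a, none of them called. Within groups the ratio differed most between the 2 LXRα T0901317 arrays, at 2.75 and 36.3. The covariate's slope therefore rests mostly on that pair, and this fit and the next are not separate checks of RNA quality. Without the 3 arrays of highest ratio the LXRα T0901317 group is replicate 1 alone, the array highest for most members, assumed to vary like the other groups, and the values were 6.25 for Cyp4a14, 3.56 for Ehhadh, 1.11 for Acaa1b and 3.98 for Pdk4, with none called. No test was made across members, which are not replicates.

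**Figure D3:**
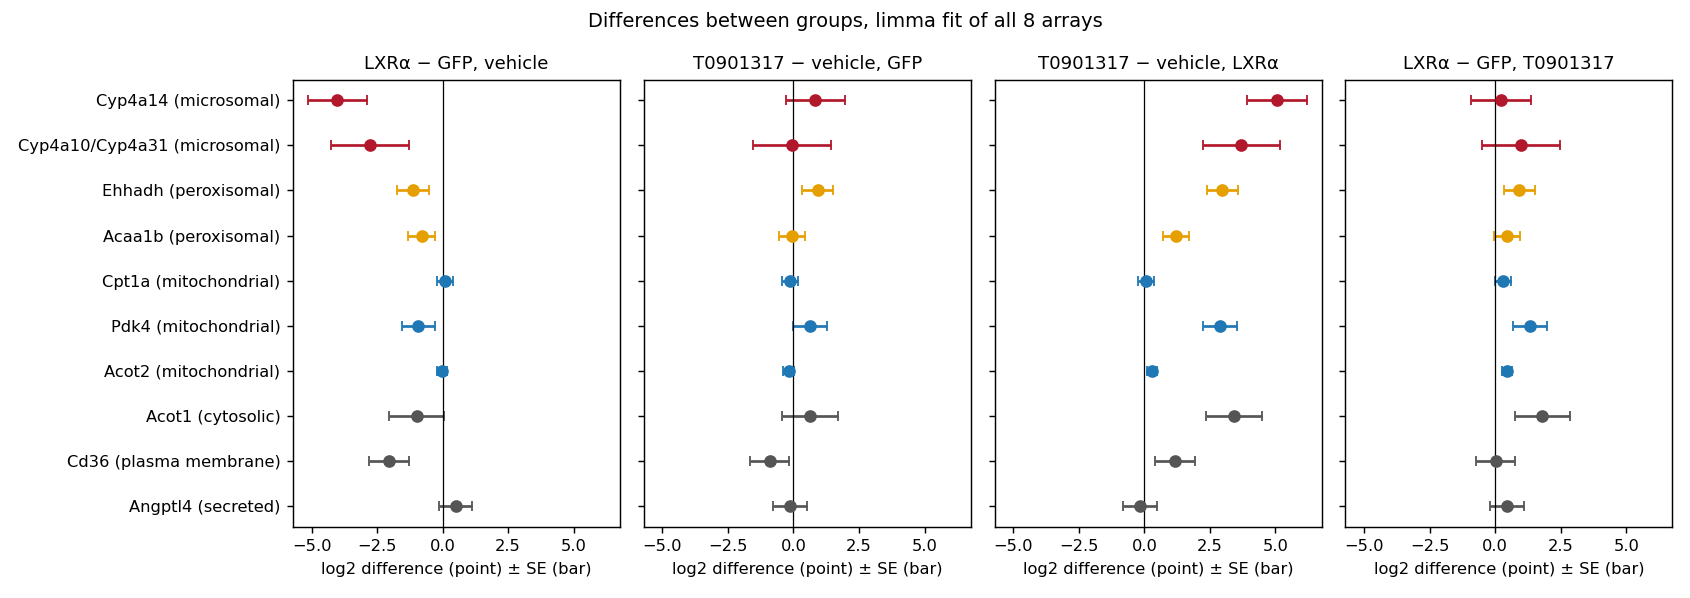
Log2 difference (horizontal axis, point) and its SE (bar) for 9 genes and the shared Cyp4a10/Cyp4a31 probe set in 4 contrasts, from a limma fit of all 8 arrays; colours are microsomal (red), peroxisomal (orange), mitochondrial (blue) and other (grey). In the panel of T0901317 minus vehicle in LXRα livers the points run from 5.06 for Cyp4a14 down to -0.17 for Angptl4.

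Counted over the 9 genes with a probe set of their own, LXRα against GFP under vehicle was lower for 7 and higher for 2, with 0 called at the adjusted threshold (0.00631% of all probe sets were) and 2 at an unadjusted p of 0.05 (5.15% of all). In 4 of the 9 genes both LXRα arrays were under both GFP arrays, against 13.5% of all probe sets, and in 0 of 9 both were above, against 30.9%. T0901317 against vehicle in GFP livers was higher for 4 and lower for 5, with 0 called (0% of all) and 0 at the unadjusted threshold (13.2%). There the 2 groups did not overlap for 2 genes that were higher, Ehhadh and Pdk4 (23.2% of all), and 2 that were lower, Cd36 and Acot2 (35.2% of all), shares that are near the background.

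In LXRα livers T0901317 against vehicle was higher for 8 of the 9 genes, all but Angptl4. None was called (0.0253% of all probe sets were), and 5 had an unadjusted p under 0.05 (13.2% of all): Cyp4a14, Ehhadh, Acaa1b, Pdk4 and Acot1. The same 5 genes had both T0901317 arrays above both vehicle arrays, against 20% of all. Between transgenes under T0901317 the mean was higher with LXRα for all 9, with 0 called (0% of all), 0 at the unadjusted threshold (2.24%), and 2 without overlap, Acaa1b and Acot2 (10.6%). Leaving out GFP T0901317 replicate 2 lowered the 9 to 5, so this direction rests on that array for 4 genes.

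For the difference between the T0901317 effects of the 2 transgenes, 0 members were called (0.00631% of all) and 3 had an unadjusted p under 0.05, Cyp4a14, Ehhadh and Pdk4 (4.77% of all). Averaged over transgenes, T0901317 gave 0 called members (0.568% of all), 4 at the unadjusted threshold (23.2% of all) and 2 without overlap of 4 arrays against 4, Ehhadh and Pdk4 (8.2% of all). Averaged over treatments, LXRα against GFP gave 0 called (0.00631%) and 0 at the unadjusted threshold (2.66%).

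Other genes of the same pathways, from lists chosen with earlier results of these data known, were set beside the members. None was called in the 4 simple contrasts. In LXRα livers T0901317 against vehicle had a median of 0.09 over the 12 genes of the microsomal ω-oxidation list. That list includes the alcohol dehydrogenases Adh1 and Adh4, so it stands for a pathway and not for a compartment. The median was -0.10 over 22 peroxisomal genes and -0.05 over 22 mitochondrial genes. The members' values were 5.06, 2.09 and 0.28 in the same order. The peroxisomal list had 10 genes higher and 12 lower, and the mitochondrial list 9 and 13. Among the peroxisomal genes, the acyl-CoA thioesterase Acot3 had the highest value, 3.17 ± 0.89 (SE; limma adjusted p = 0.239), with intensities of 17.7 and 12.2 under vehicle and 218 and 80.0 under T0901317. The nudix hydrolase Nudt7 was at the other end, at -1.65 ± 0.50 (adjusted p = 0.275), from 6399.8 and 6346 to 1231 and 3362. Both pairs of groups were separate.

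In the mitochondrial list, the thioesterase Acot9 had the highest value, 2.57 ± 0.44 (SE; limma adjusted p = 0.146), with 18.6 and 5.91 under vehicle and 93.0 and 53.1 under T0901317. The 5.91 lies under the floor and was set to 7.50, so the size of this difference depends on the floor. Bdh1, a ketone body dehydrogenase, was lower with T0901317 with either transgene, at -1.13 in LXRα and -1.01 in GFP livers, neither of them called. In GFP livers Acads was lower with T0901317 too, at -0.86 ± 0.31 (adjusted p = 0.321). There 19 of the 22 mitochondrial genes had a lower mean with T0901317, against 4848 of all 9359 genes tested. The list median was -0.47, and 0 were called. The β-actin ratio was high on both of those T0901317 arrays, and its part in this was not tested here. Of the ω-oxidation list, Cyp4f15, a relative of the Cyp4a enzymes, read 237 and 238 with GFP and vehicle. It read 855 and 511 with GFP and T0901317, a difference of 1.48 ± 0.28 (adjusted p = 0.158), and gave 0.52 ± 0.28 in LXRα livers (adjusted p = 0.439). Adh4 and Cyp4f14 were lower with T0901317 in LXRα livers, at -1.33 ± 0.42 and -0.69 ± 0.28 (adjusted p = 0.283 and 0.364). In GFP livers Cyp4f14 was higher, at 0.75 ± 0.28 (adjusted p = 0.329). Of the 12 genes of the ω-oxidation list 7 were higher and 5 lower in LXRα livers, and at an unadjusted limma p under 0.05 these counts were 0 and 3.

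Genes of fatty acid uptake, binding and storage were higher with T0901317 in LXRα livers for 19 of 21, with a median of 0.92. Of all 9359 genes tested, 4414 were higher there. Under vehicle 18 of the 21 were lower with LXRα, with a median of -0.39, against 3753 of all genes. None was called in either, and both contrasts use the same LXRα vehicle arrays. In GFP livers T0901317 gave 10 higher and 11 lower, with a median of -0.03. Cidec and Vnn1 were lower there, at -1.86 ± 0.76 and -1.04 ± 0.37 (SE; limma adjusted p = 0.370 and 0.312). Lpl, the lipase that Angptl4 inhibits, read 1161 and 288 with LXRα and vehicle and 2777 and 2313 with LXRα and T0901317, a difference of 2.13 ± 0.58 (SE; limma adjusted p = 0.228). The acyl-CoA synthetase Acsl4 gave 1.60 ± 0.26 (adjusted p = 0.133). The lipid droplet protein Plin2 was 1.01 ± 0.38 higher with LXRα than with GFP under T0901317 (adjusted p = 1). Lpl is a gene of macrophages too, and its lowest value was again on LXRα vehicle replicate 2.

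**Figure D4:**
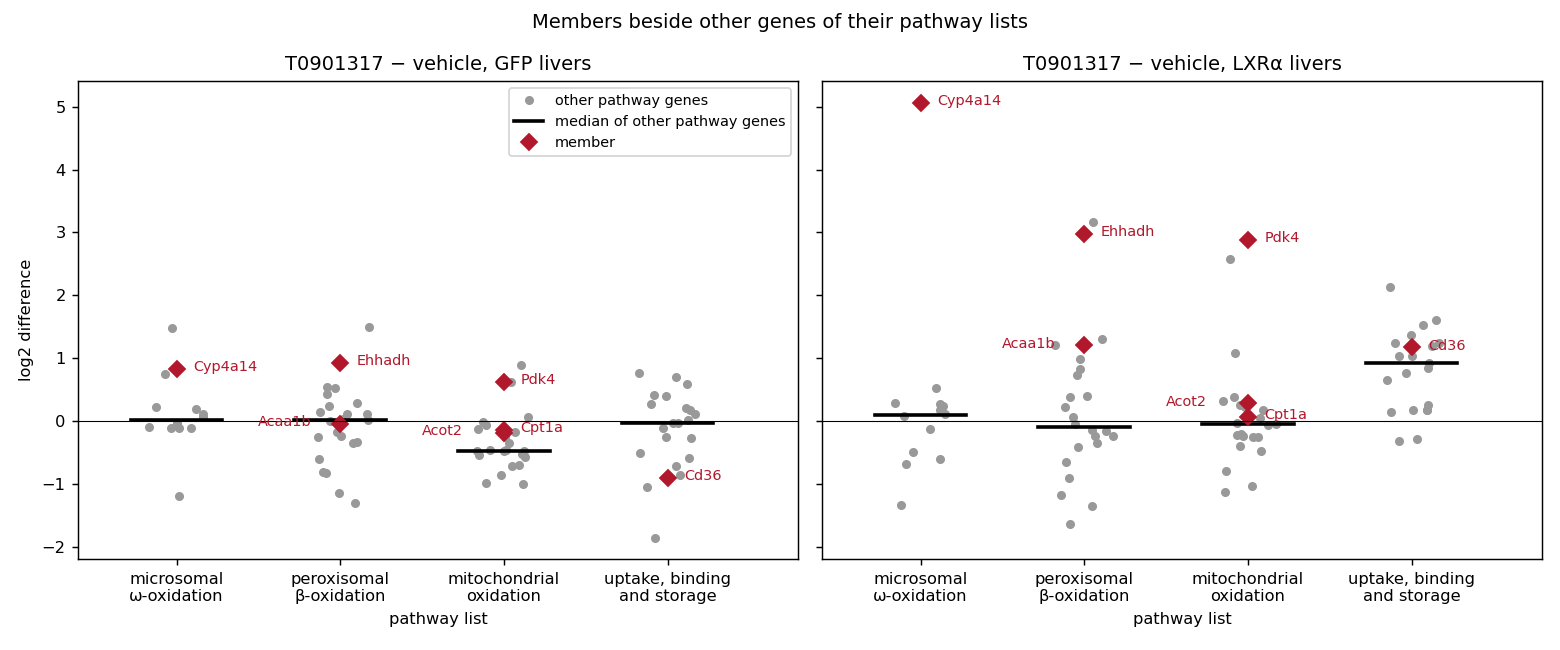
Log2 difference of T0901317 minus vehicle (vertical axis) in GFP livers (left) and LXRα livers (right) for other genes of 4 pathway lists (grey points; horizontal spread has no meaning), their median (black bar) and the members of the same compartment (red diamonds). On the right Cyp4a14, Ehhadh and Pdk4, at 5.06, 2.98 and 2.88, lie above list medians of 0.09, -0.10 and -0.05, with Acaa1b at 1.20, and Acot2 and Cpt1a, at 0.28 and 0.06, lie near theirs.

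The levels of Ppara, the gene of the receptor itself, overlapped between all groups. It read 884 and 1166 with GFP and vehicle, 1103 and 997 with LXRα and vehicle, 1166 and 587 with GFP and T0901317, and 928 and 1076 with LXRα and T0901317. Its differences were 0.05 ± 0.35 for LXRα against GFP under vehicle and -0.07 ± 0.35 for T0901317 in LXRα livers (SE; limma adjusted p = 0.994 and 0.934). Of 13 receptors and cofactors 10 were measured and none was called. Rxra, the main hepatic RXR, gave -1.16 ± 0.38 for T0901317 in LXRα livers (adjusted p = 0.296), with its lowest value, 209, on LXRα T0901317 replicate 2, the array of the highest β-actin ratio. The coactivator gene Ppargc1b gave 1.41 ± 0.47 for T0901317 in GFP livers (adjusted p = 0.296) and 0.73 ± 0.47 in LXRα livers (adjusted p = 0.481). Its relative Ppargc1a gave 0.36 ± 0.45 in GFP livers (adjusted p = 0.708) and -0.91 ± 0.45 in LXRα livers (adjusted p = 0.420). In LXRα livers it read 44.9 and 47.4 with vehicle and 40.7 and 14.9 with T0901317. Its largest difference was between transgenes under T0901317, -1.31, against 55.7 and 66.8 with GFP. The 14.9 was on LXRα T0901317 replicate 2, the array of the highest β-actin ratio. Nr0b2, which encodes the corepressor SHP, gave -1.50 ± 0.32 for T0901317 in LXRα livers (adjusted p = 0.176) and -0.94 ± 0.32 in GFP livers (adjusted p = 0.301). Pparg, Rxrb, Ncoa1, Creb3l3 and Med1 differed by at most 0.52 in every simple contrast.

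Across the 8 arrays, Ehhadh and Acot1 had a Pearson r of 0.936 and Ehhadh and Cyp4a14 one of 0.909, while Cyp4a14 and Cpt1a had 0.094. Cpt1a was instead most like Angptl4, at 0.803. These are descriptions over 8 arrays that share groups and the 2 outlying arrays named above. Among 14362 probe sets with 1 symbol outside the set, those most like Cyp4a14 were for Fli1 (0.984), Hipk1 (0.971), Echdc1 (0.970), Sgk3 (0.960) and Phkb (0.958). Fli1 encodes an ETS factor known in blood and endothelial cells, and it read 18.2 and 12.3 with LXRα and vehicle against 25.6 to 45.3 on the other arrays. Echdc1, an ethylmalonyl-CoA decarboxylase, spanned 131 to 263.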

How the data were processed

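Liver RNA of 8 mice was measured on Affymetrix arrays. The authors deposited 1 linear intensity per probe set and array; for these intensities, software and normalization are both not given in the sources used, and no scanner files were used. From them, control probe sets were left out, intensities under the 20th percentile of positive values (7.50) were set to it, log2 was taken, and probe sets with a mean above the 30th percentile were tested (15838 of 22626). One model of 4 group means was fitted to all 8 arrays with limma 3.58.1 in R 4.3.3 (lmFit, eBayes with an intensity trend, 4 residual and 2.93 prior degrees of freedom), with Benjamini-Hochberg adjustment over all probe sets of a contrast, called at 0.05. Limma was tested on simulated data. The number of arrays limits the precision.

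Gene names come from the platform's annotation, brought up to date through gene IDs of RefSeq: 20380 probe sets have 1 symbol, 691 several and 1555 none. Each gene's value is that of its brightest tested probe set naming it alone; all other probe sets of members are given beside it. From the pathway lists, all measured receptors and cofactors are eligible to be named, and, per list and simple contrast, the 2 genes of largest absolute difference at an unadjusted p of 0.05; the 5 probe sets most correlated with Cyp4a14 are named too. The members and lists were chosen with earlier results of these data known. Replicate numbers were not taken as pairs, since deviations from group means correlated between -0.14 and 0.25 among same-numbered arrays. Alternatives covered normalization, floor, filter, variance model, RNA quality, probe set choice and each array left out. One item of the animals' description, the same in all groups, is not reported here.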

Additional observations from a re-analysis of the deposited data

Results flagged for a closer look

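For 4 genes and 1 shared probe set, both arrays of a group lay on one side of the comparison group's mean in one setting and on the other side in the second. The transgene difference was negative under vehicle and positive under T0901317 for Ehhadh, Pdk4, Acot2 and the Cyp4a10/Cyp4a31 probe set. For Acot2 the vehicle difference was -0.02 ± 0.20 (SE), with overlapping groups. For the shared probe set the T0901317 difference was 0.99 ± 1.48. Under T0901317 the groups overlapped for all of these but Acot2. Each of these patterns was tested by the interaction term of the limma fit, and none passed. The interaction was 2.05 ± 0.84 (SE) for Ehhadh, 2.26 ± 0.91 for Pdk4, 0.47 ± 0.28 for Acot2 near the floor, and 3.75 ± 2.09 for the shared probe set, each with an adjusted p of 1. Without LXRα vehicle replicate 2 it was 1.25 for Ehhadh, 2.22 for Pdk4, 0.46 for Acot2 and 1.44 for the shared probe set. Without LXRα T0901317 replicate 1 it was 1.465, 1.16, 0.15 and 3.27 in the same order. For the brightest Cd36 probe set the T0901317 difference was negative in GFP livers and positive in LXRα livers, with an interaction of 2.08 ± 1.06 (adjusted p = 1). This interaction came to 0.96 without LXRα vehicle replicate 2 and 1.47 without LXRα T0901317 replicate 1. In GFP livers the T0901317 difference was -0.11 when the β-actin ratio entered the fit as a covariate. The other 2 Cd36 probe sets gave -0.03 and 0.17 there without the covariate.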

How the results depend on the processing

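With the replicate number as a block, member probe sets called stayed at 0 in all 7 contrasts, as they did under every other alternative but 1: without LXRα T0901317 replicate 1, 1 probe set, that of Pdk4, was called averaged over transgenes, in a setting in which 1506 of all 15838 (9.51%) were. In this balanced design the block cannot change a difference, only its error. Without LXRα T0901317 replicate 1 the T0901317 arrays left are all of high β-actin ratio, so treatment and ratio cannot be told apart in that setting. Over all probe sets, the 90 calls averaged over transgenes became 17 with the block, 32 after quantile normalization, 15 with no filter, 4 when the β-actin ratio was a covariate, and 0 to 1506 with single arrays left out. With shared probe sets counted, an alternative chosen after seeing the data, the microsomal and peroxisomal medians for T0901317 in LXRα livers were 4.38 and 2.02. Member genes lower with T0901317 in GFP livers numbered 3 with that covariate, and 2 to 7 with single arrays left out; genes higher with LXRα under T0901317 numbered 5 to 9. The peroxisomal median ran from -1.79 to -0.14 for LXRα against GFP under vehicle and from 1.26 to 2.92 for T0901317 in LXRα livers with single arrays left out. The mitochondrial median in LXRα livers was 1.47 with the filter at the 50th percentile, which drops Acot2. Cpt1a for T0901317 in LXRα livers was -0.0277 after quantile normalization and -0.0093 without the 3 arrays of high β-actin ratio, and -0.053 to 0.18 with single arrays left out; for it the same range was -0.0086 to 0.22 between transgenes under vehicle, -0.0975 to 0.72 under T0901317, and -0.55 to 0.27 for T0901317 in GFP livers. Single arrays left out took Acaa1b between transgenes under vehicle from -1.66 to 0.055, Acot2 in LXRα livers from -0.044 to 0.61, and Pdk4 averaged over transgenes from 1.20 to 2.30. The cause of these shifts was not tested. The small number of arrays and signal near the floor (Acot2, the second Angptl4 probe set, Acot9) limit what could be detected.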
